A study of Mus musculus with 44 samples.

Results

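The enzymes that carry the sterol branch of cholesterol synthesis from squalene synthase to cholesterol were followed in dendritic cells from tumour-draining lymph nodes of mice. The members were the 9 rows of the deposited expression table with the gene symbols Fdft1, Sqle, Lss, Cyp51, Msmo1, Nsdhl, Hsd17b7, Sc5d and Dhcr7, chosen by symbol as the enzymes of this stretch of the pathway, out of 14699 genes in the table. All 9 passed the filter on low values, with 11963 genes tested in all. The sorted cells were CD11c+ with high MHC class II, from the inguinal node of female mice aged 8 to 12 weeks, collected 24 h after injection at ZT3, ZT9, ZT15 or ZT21, where ZT counts hours after lights on in a cycle of 12 h light and 12 h darkness. The injection and the collection shared the same ZT, so that their effects cannot be told apart. In control tumour libraries (genotype label WT, n = 5 at each ZT) mice of control genotype received B16-F10-OVA, a melanoma line that expresses ovalbumin. In libraries labelled KO, called here libraries labelled Bmal1ΔcDC (n = 3 at each ZT), mice with floxed Bmal1 alleles and Cre under the Clec9a promoter, which is active in conventional dendritic cells and their precursors, received the same tumour. In sham libraries (n = 3 at each ZT) mice of control genotype received PBS. The control tumour libraries enter both the comparison of genotype and that of treatment.

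Cholesterol is built from acetyl-CoA by way of mevalonate and farnesyl pyrophosphate, and the members act on what follows. Fdft1 (squalene synthase) joins farnesyl units into squalene, Sqle (squalene epoxidase) adds an oxygen, and Lss (lanosterol synthase) closes the chain into the first sterol. Cyp51, Msmo1, Nsdhl and Hsd17b7 then strip methyl groups from lanosterol, and Sc5d and Dhcr7 set the double bonds of the final rings. Transcription of these genes is known to rise when the sterol content of the endoplasmic reticulum falls, through the SREBP factors that Scap carries and Insig1 holds back.

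The 44 libraries held 20088012 to 55799162 reads on genes, as recovered from the most frequent low value of each column, taken as a single read. Control tumour held 20088012 to 28962671, libraries labelled Bmal1ΔcDC 29406729 to 55799162 and sham 28003328 to 49590054. Depth thus did not overlap between control tumour and libraries labelled Bmal1ΔcDC, and it overlapped little between control tumour and sham. Markers of migratory dendritic cells (Ccr7, Fscn1, Ccl22, Cacnb3, Socs2 and Cd83) summed to 14310 to 24519 CPM, which are among the defining genes of the sorted cells, where CPM is the reads on a gene after each library was scaled to the same total. The 10 markers of T cells, all of them detected in every library, summed to 395 to 730 CPM in control tumour, 553 to 1153 CPM in libraries labelled Bmal1ΔcDC and 620 to 1275 CPM in sham. The 6 macrophage markers summed to 65.5 to 197 CPM, 105 to 677 CPM and 203 to 356 CPM in the same order. The 5 B cell markers stayed at or below 119 CPM and the 6 melanoma markers at or below 22.1 CPM, with the melanocyte genes Tyrp1 and Dct at 0 in 40 and 39 libraries. The highest macrophage and melanoma sums came from ZT15 replicate 2 labelled Bmal1ΔcDC. In bulk libraries, fewer cells of a type and less RNA per cell cannot be told apart. Arntl, the gene that encodes BMAL1, was not lower in the libraries labelled Bmal1ΔcDC. It stood at 19.9 ± 6.91 CPM there (SD, n = 12), 14.8 ± 3.65 CPM in control tumour (SD, n = 20) and 21.7 ± 6.11 CPM in sham (SD, n = 12), and its genotype difference averaged over time was 0.38 ± 0.12 (SE, log2 scale; adjusted p = 0.0153, limma). A value summed over the whole gene does not check the loss of a part of it. The study's methods give the replicates as mice, while the labels name no animal for a library.

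RefSeq start sites of build GRCm38.p6 were found for 7 of the 9 members, at 9 starts, 3 of them for Dhcr7, and the 250 bases upstream of each were searched on both strands. The motifs were a sterol regulatory element written TCACNCCAC, the clock-type E-box CACGTG, the CCAAT box CCAAT and the GC box GGGCGG, and no match of one overlapped a match of another. Each of the 7 members had a CCAAT box and a GC box at 1 start or more. By start, a CCAAT box stood upstream of 7 of 9, against 33.8% of the 32817 start sites of all genes, and a GC box upstream of 8 of 9, against 32.7%. CACGTG was found at 3 of 9 starts, those of Hsd17b7, Sc5d and 1 of Dhcr7, against 6.02% of all starts, and TCACNCCAC for none of the 7, against 1.05%. A match is a description of letters and not of a bound site. The upstream sequences of 4 members are shown because they differ in the results below: Msmo1 passed the tests of time and genotype, Cyp51 that of treatment, Nsdhl was lower with treatment, and Sc5d holds the E-box. They lie at chr8:64733579-64733828 (Msmo1), chr5:4104698-4104947 (Cyp51), chrX:72918271-72918520 (Nsdhl) and chr9:42264301-42264550 (Sc5d), on the plus strand for Nsdhl and the minus strand for the others. Each is written 5′ to 3′ in the direction of transcription and ends at the base before the start, with CCAAT boxes of either strand and the E-box in capitals.
Msmo1: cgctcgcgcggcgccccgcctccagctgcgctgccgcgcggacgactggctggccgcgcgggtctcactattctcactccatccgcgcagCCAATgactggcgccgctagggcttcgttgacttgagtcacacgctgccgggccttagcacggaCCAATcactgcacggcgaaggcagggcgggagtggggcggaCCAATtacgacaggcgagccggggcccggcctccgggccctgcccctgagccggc
Cyp51: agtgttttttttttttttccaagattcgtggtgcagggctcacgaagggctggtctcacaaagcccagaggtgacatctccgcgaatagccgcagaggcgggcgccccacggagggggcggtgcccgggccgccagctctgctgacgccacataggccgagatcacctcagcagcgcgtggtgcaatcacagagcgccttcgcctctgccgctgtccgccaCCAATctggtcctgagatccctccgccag
Nsdhl: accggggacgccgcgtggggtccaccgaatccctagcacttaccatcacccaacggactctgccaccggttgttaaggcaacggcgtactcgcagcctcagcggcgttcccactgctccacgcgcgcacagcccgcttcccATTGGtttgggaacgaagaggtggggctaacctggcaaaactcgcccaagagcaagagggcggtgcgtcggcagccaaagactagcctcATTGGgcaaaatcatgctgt
Sc5d: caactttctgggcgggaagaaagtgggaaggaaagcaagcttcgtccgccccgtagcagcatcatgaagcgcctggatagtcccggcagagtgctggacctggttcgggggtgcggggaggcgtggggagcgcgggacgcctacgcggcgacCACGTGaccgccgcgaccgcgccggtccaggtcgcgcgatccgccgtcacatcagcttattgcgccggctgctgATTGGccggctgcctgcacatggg
Msmo1 carries 3 CCAAT boxes, 160, 96 and 55 bases before the start, Nsdhl 2 in the opposite direction, and Cyp51 1, at 29 bases. In Sc5d the E-box begins 98 bases before the start.

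Per kilobase of the longest principal transcript, Msmo1 and Cyp51 had the highest levels among the members and Hsd17b7 and Dhcr7 the lowest. Over the 20 control tumour libraries the level of Msmo1 was 56.8 ± 11.5 CPM per kb and that of Cyp51 53.1 ± 8.80 CPM per kb (SD), with Msmo1 above Cyp51 in 15 of 20 libraries. Fdft1 followed at 32.7 ± 7.55 CPM per kb and Sqle at 25.5 ± 7.01 CPM per kb. Sc5d stood at 17.3 ± 3.02, Nsdhl at 12.5 ± 2.59, Lss at 6.88 ± 2.28, Dhcr7 at 5.35 ± 1.38 and Hsd17b7 at 5.17 ± 1.67 CPM per kb. The gap was smaller than the SD of either neighbour between Msmo1 and Cyp51 and between Dhcr7 and Hsd17b7 (10 of 20 libraries in this order), so these neighbours were not separated by this measure. The SDs include the variation between timepoints, which the genes of a library share, so the counts of libraries stand beside them. It lay between the SDs of both neighbours for Fdft1 above Sqle (18 of 20 libraries in this order) and for Lss above Dhcr7 (14 of 20). Per kilobase of all exons joined the order changed, with Cyp51 at 47.3, Fdft1 at 28.6, Msmo1 at 18.9, Sc5d at 17.0 and Sqle at 12.7 CPM per kb at the top, and Hsd17b7 at 4.67, Lss at 2.98 and Dhcr7 at 2.59 CPM per kb at the bottom. The place of Msmo1 thus rested on the choice of length. The values of Fdft1 in 97.7% and of Lss in 54.5% of libraries were not whole reads (within a tolerance of 0.01 reads), and the levels of these 2 genes are uncertain for that reason.

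**Figure D1:**
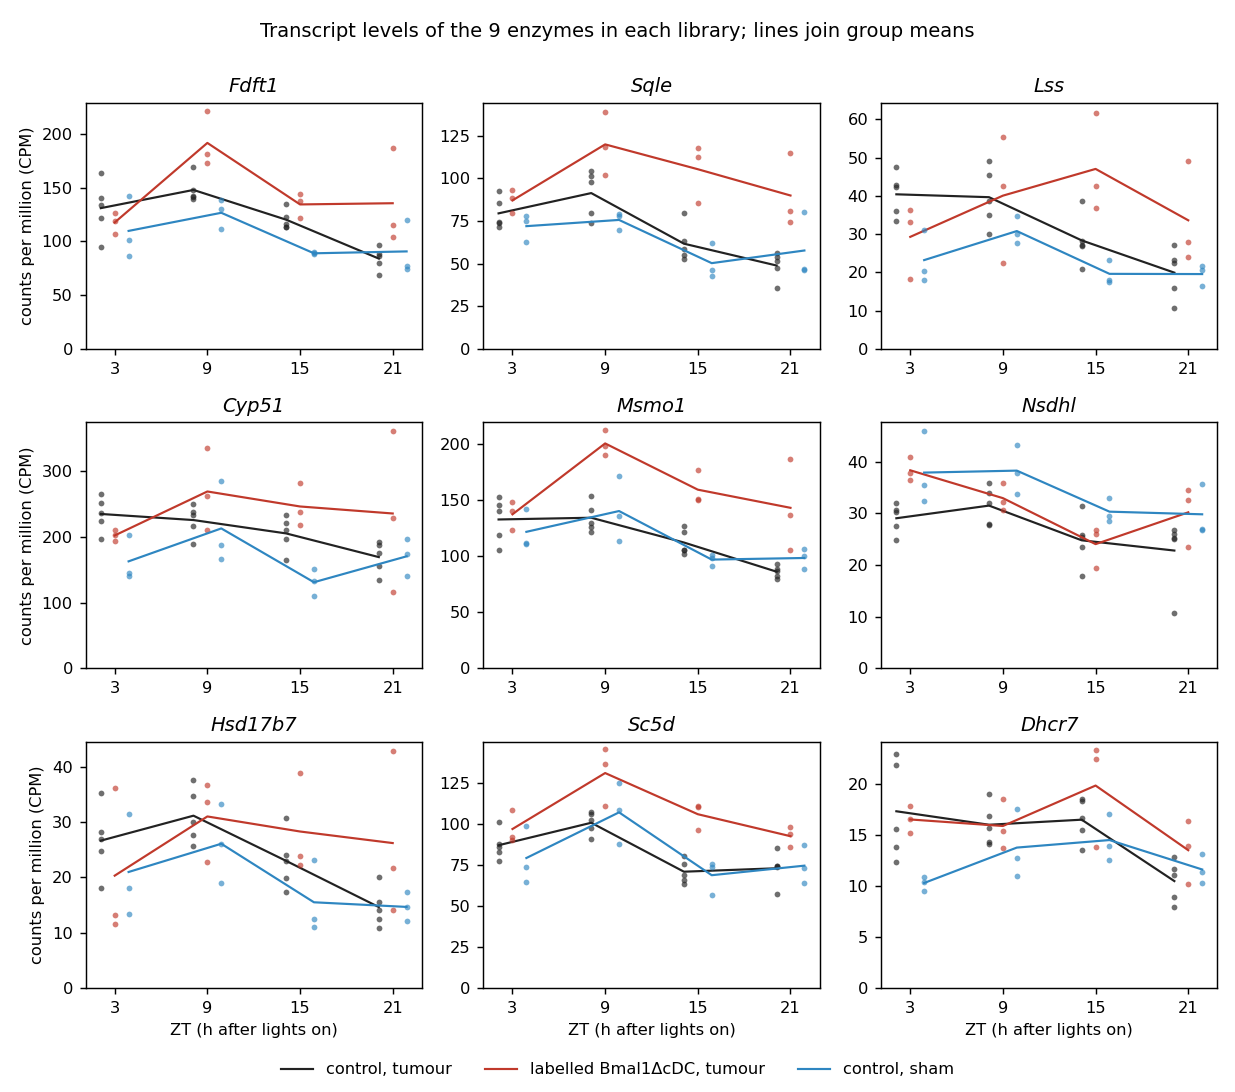
Level of each enzyme (CPM, vertical axis from 0) against ZT (h after lights on) in control tumour (black), libraries labelled Bmal1ΔcDC (red) and sham (blue), drawn side by side around each ZT; points are libraries and lines join group means. In control tumour 8 of 9 enzymes have their lowest mean at ZT21, and ZT21 replicate 1 labelled Bmal1ΔcDC stands at 362 CPM for Cyp51.

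In control tumour the summed level of the 9 enzymes was highest at ZT9, in the light, and lowest at ZT21, late in the dark. Their summed level went from 818 ± 65.6 CPM at ZT9 and 778 ± 83.0 CPM in the ZT3 libraries to 663 ± 57.0 CPM in those of ZT15 and 529 ± 39.2 CPM in those of ZT21 (SD, n = 5 at each ZT). The highest mean fell at ZT9 for 6 members and at ZT3 for Lss, Cyp51 and Dhcr7, and the lowest at ZT21 for all but Sc5d, which was lowest at ZT15. In 8 of 9 members all 5 libraries at ZT9 lay above all 5 at ZT21, against 2.38% of the genes tested, and Cyp51 was the exception.

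At the entry of the branch, Fdft1 stood at 140, 169, 147, 141 and 142 CPM in the ZT9 libraries and at 79.6, 96.7, 69.1, 88.1 and 86.8 CPM in the ZT21 libraries of control tumour. The groups did not overlap, and the difference of log2(CPM + 0.5) was 0.82 ± 0.13 (SE; adjusted p = 0.0133, limma). Sqle, a rate-controlling step of the branch, was at 73.9, 102, 97.9, 104 and 79.4 CPM at ZT9 and at 56.0, 51.4, 35.9, 47.2 and 54.0 CPM at ZT21. The lowest ZT9 library was above the highest ZT21 library, with a log2 difference of 0.90 ± 0.14 (SE; adjusted p = 0.0134, limma). Lss was at 30.0, 45.4, 49.3, 38.6 and 35.1 CPM at ZT9 and at 10.6, 22.5, 16.0, 27.2 and 23.3 CPM at ZT21. Its groups also stood apart, and its log2 difference of 1.02 ± 0.22 (SE) did not pass (adjusted p = 0.0521, limma).

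Among the enzymes that remove methyl groups, Hsd17b7 and Msmo1 passed the test. Hsd17b7, a keto-reductase, was at 37.6, 34.6, 30.0, 27.7 and 25.7 CPM at ZT9 and at 10.9, 20.1, 12.4, 14.0 and 15.6 CPM at ZT21, a log2 difference of 1.08 ± 0.19 (SE; adjusted p = 0.0184, limma). Msmo1, the methylsterol oxidase, was at 121, 154, 141, 129 and 126 CPM at ZT9 and at 79.5, 88.8, 86.4, 93.3 and 82.3 CPM at ZT21, a log2 difference of 0.63 ± 0.11 (SE; adjusted p = 0.0184, limma). In both, no ZT21 library reached the lowest ZT9 library. Nsdhl, the sterol dehydrogenase that acts between these enzymes, was 0.52 ± 0.20 higher at ZT9 on the log2 scale (adjusted p = 0.349, limma), and its ZT21 group held 1 library at 10.8 CPM and 4 between 25.1 and 26.9 CPM. Cyp51, the lanosterol demethylase, had the smallest difference of the 9, 0.42 ± 0.12 (adjusted p = 0.193, limma), with 190 to 250 CPM at ZT9 and 134 to 193 CPM at ZT21.

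At the end of the branch, the desaturase Sc5d was at 97.4, 107, 102, 106 and 90.5 CPM at ZT9 and at 73.9, 74.0, 74.2, 85.3 and 57.4 CPM at ZT21, a log2 difference of 0.47 ± 0.11 (SE; adjusted p = 0.0701, limma). Dhcr7, the reductase of the last step, was at 14.1 to 19 CPM at ZT9 and at 7.89 to 12.8 CPM at ZT21, a difference of 0.60 ± 0.17 (adjusted p = 0.177, limma).

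In all, 4 of 9 members rose from ZT21 to ZT9 in control tumour (Fdft1, Sqle, Hsd17b7 and Msmo1), where 0.092% of the genes tested were called higher, and only Hsd17b7 was called at 2-fold or more, against 0.0251%. With median-of-ratios scaling Sqle and Hsd17b7 passed and Fdft1 (adjusted p = 0.0508) and Msmo1 (adjusted p = 0.0735, limma) did not. The median log2 difference was 0.63 over the members and 0.04 over all genes tested. T cell markers moved the opposite way in the same libraries, summing to 395 to 570 CPM at ZT9 and 533 to 730 CPM at ZT21. Macrophage markers did so too, at 65.5 to 93.5 CPM and 90.0 to 114 CPM, while markers of migratory dendritic cells moved with the members and did not overlap, at 20087 to 21857 CPM and 17329 to 19738 CPM. The dendritic cell markers Itgax, H2-Ab1, H2-Aa, Cd74, Flt3 and Zbtb46 overlapped, at 12706 to 15926 CPM and 14474 to 17022 CPM, with medians of 14134 and 15107 CPM. The part of the macrophage and dendritic cell lists was not tested. With the mean of the T cell markers as a covariate, 0 of 9 members passed (limma) and 8 of 9 had an unadjusted p under 0.05. The log2 differences were then 0.80 for Fdft1, 0.64 for Sqle, 1.05 for Hsd17b7 and 0.59 for Msmo1. Without ZT9 replicate 2, the library in which Fdft1 was highest, 0 of 9 passed (limma), with 9 of 9 at an unadjusted p under 0.05 and adjusted p-values of 0.0547 to 0.0644 for the same 4 genes.

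**Figure D2:**
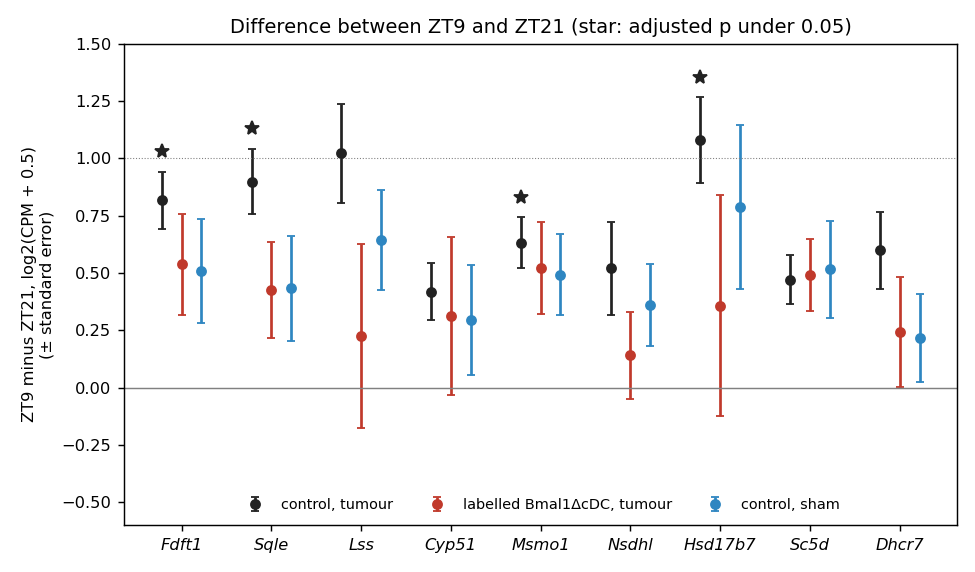
Difference between ZT9 and ZT21 in log2(CPM + 0.5) for each enzyme, with its standard error, in control tumour (black), libraries labelled Bmal1ΔcDC (red) and sham (blue); the dotted line marks 2-fold and stars mark an adjusted p under 0.05. All 27 differences are above 0, and the 4 stars are in control tumour (Fdft1, Sqle, Msmo1 and Hsd17b7).

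A 24-h cosine curve was fitted to each gene in each group, with an amplitude (the log2 distance from mean to peak) and an acrophase (the fitted peak time). In control tumour the unadjusted p was under 0.05 in 9 of 9 members, against 9.2% of the genes tested, and all 9 also peaked before ZT12, against 5.13%. After adjustment over all genes Sqle alone passed, against 0.0251%. Acrophases of the 9 lay within 2 h of each other, from 6.87 h for Sc5d to 8.77 h for Dhcr7. Amplitudes ranged from 0.23 ± 0.07 (SE) for Cyp51, 0.28 ± 0.06 for Sc5d, 0.29 ± 0.10 for Nsdhl and 0.30 ± 0.10 for Dhcr7 to 0.55 ± 0.10 for Hsd17b7 and 0.57 ± 0.12 for Lss, with a median of 0.34 over the members and 0.14 over all genes tested. Leaving out 1 library at a time kept 8 or 9 members at an unadjusted p under 0.05, while the adjusted count ran from 0, in 11 of 20 such fits, to 4, and was 0 with median-of-ratios scaling and with the T cell covariate (limma), under which 6 and 8 members had an unadjusted p under 0.05.

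**Figure D3:**
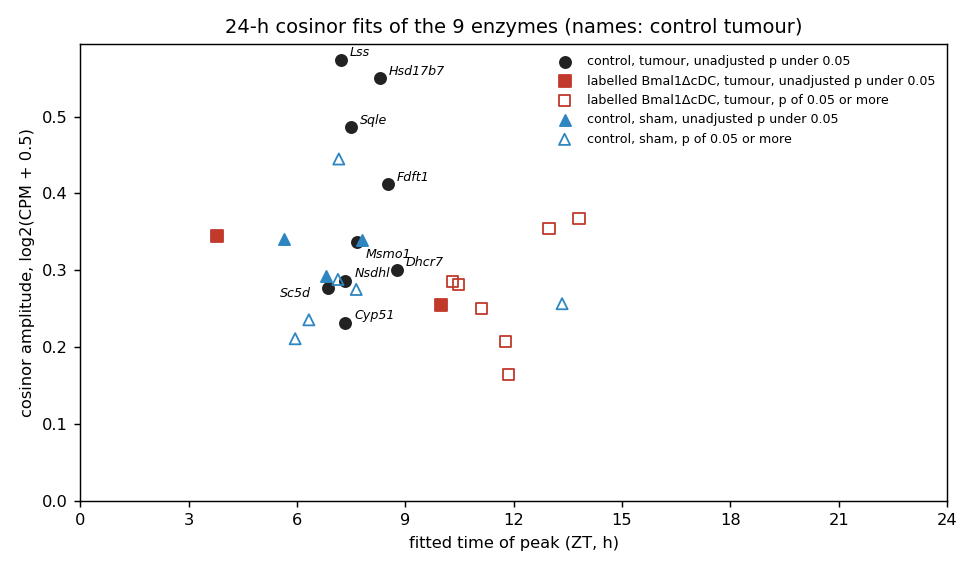
Amplitude (log2 scale) against fitted peak time (ZT, h) of the 24-h cosine curve for each enzyme in control tumour (circles, named), libraries labelled Bmal1ΔcDC (squares) and sham (triangles); filled symbols have an unadjusted p under 0.05. Control tumour points lie between 6.87 and 8.77 h, and squares spread from 3.78 to 13.8 h.

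In libraries labelled Bmal1ΔcDC, as in control tumour, 6 of 9 members had their highest mean at ZT9. Their summed level was highest in the ZT9 libraries, 1032 ± 147 CPM, followed by 870 ± 96.0 CPM in those of ZT15, 800 ± 244 CPM in those of ZT21 and 745 ± 47.5 CPM in those of ZT3 (SD, n = 3). ZT3 held the lowest mean of 6 (Fdft1, Sqle, Lss, Cyp51, Msmo1 and Hsd17b7). Fdft1 was at 173, 181 and 221 CPM in the ZT9 libraries and at 107, 127 and 119 CPM in those of ZT3, while ZT15 gave 144, 122 and 138 CPM and ZT21 gave 187, 116 and 104 CPM. The ZT21 libraries stood apart from one another: replicate 1 was at the level of ZT9 and the other two at that of ZT3. Cyp51 was at 362, 228 and 117 CPM at ZT21, and Hsd17b7 at 42.8, 21.6 and 14.1 CPM, with replicate 1 again the highest, as it was for Sqle, Lss and Msmo1. Nsdhl (32.7, 23.5 and 34.5 CPM), Sc5d (85.9, 93.5 and 98 CPM) and Dhcr7 (10.2, 13.9 and 16.4 CPM) were instead highest in replicate 3. T cell markers at ZT21 summed to 697 CPM in replicate 1, 750 CPM in replicate 2 and 1153 CPM in replicate 3. Sc5d and Dhcr7 followed this order, and Fdft1, Lss, Cyp51, Msmo1 and Hsd17b7 reversed it.

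The cosine curve gave an unadjusted p under 0.05 in 2 of 9 members in libraries labelled Bmal1ΔcDC, against 10.5% of the genes tested, and none after adjustment (limma), as for all genes (0%). Sc5d peaked at 9.99 h with an amplitude of 0.25 ± 0.08 (SE; adjusted p = 0.419, limma). Nsdhl peaked at 3.78 h with 0.34 ± 0.09 (SE; adjusted p = 0.373, limma), and was at 37.8, 36.4 and 40.8 CPM at ZT3 and at 26.7, 19.4 and 26.1 CPM at ZT15, without overlap. Between ZT9 and ZT21 none of the 9 passed (0% of all genes), and Fdft1, Msmo1 and Sc5d had an unadjusted p under 0.05 and were higher at ZT9, against 2.05% of genes. That count ran from 1 (without ZT9 replicate 2 or 3, or ZT21 replicate 2 or 3) to 5 on leaving out 1 library. Msmo1 and Sc5d did not overlap between the timepoints, against 3.69% of genes. All 9 differences were above 0, with a median of 0.36, where the median of all genes was −0.12. With median-of-ratios scaling these medians became 0.49 and 0.00. T cell markers in these libraries summed to 588 to 649 CPM at ZT9 and 697 to 1153 CPM at ZT21, without overlap. Macrophage markers also did not overlap, at 105 to 119 CPM and 143 to 190 CPM, nor did the dendritic cell markers (Itgax, H2-Ab1, H2-Aa, Cd74, Flt3 and Zbtb46), at 16326 to 20039 CPM and 13995 to 14959 CPM. Markers of migratory dendritic cells overlapped, at 22149 to 23637 CPM and 19733 to 23150 CPM. The part of the macrophage and dendritic cell lists was not tested. Once the T cell markers entered as a covariate, Sc5d alone kept an unadjusted p under 0.05 (0.64, adjusted p = 0.277, limma), Fdft1 was at 0.26 and Msmo1 at 0.23, and Lss (−0.04) and Cyp51 (−0.30) were below 0. Lss was lower at ZT9 by 0.05 without ZT9 replicate 3, and Cyp51 by 0.12 and Hsd17b7 by less than 0.01 without ZT21 replicate 3, and Nsdhl by 0.03 without ZT21 replicate 2 (log2 scale), so that the direction of these 4 rested on single libraries.

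In sham libraries ZT9 held the highest mean of 8 members, with Dhcr7 the exception, highest at ZT15. The summed level was highest in the ZT9 libraries, 771 ± 122 CPM, followed by 638 ± 86.5 CPM in those of ZT3, 567 ± 91.4 CPM in those of ZT21 and 516 ± 47.0 CPM in those of ZT15 (SD, n = 3). The cosine curve reached an unadjusted p under 0.05 for Lss (acrophase 7.80 h, amplitude 0.34 ± 0.11), Msmo1 (6.81 h, 0.29 ± 0.09) and Sqle (5.63 h, 0.34 ± 0.11), 3 of 9 against 7.38% of the genes tested, and none passed after adjustment (limma; 0% of all genes). Between ZT9 and ZT21 none passed (0% of all genes), and 4 members had an unadjusted p under 0.05 and were higher at ZT9 (Fdft1, Lss, Msmo1 and Sc5d), against 3.61%, a count that ran from 0 (without ZT21 replicate 1) to 6 on leaving out 1 library. Lss, Msmo1, Hsd17b7 and Sc5d did not overlap between these timepoints, against 6.65%. Lss was at 30.2, 27.6 and 34.7 CPM at ZT9 and at 16.5, 20.6 and 21.7 CPM at ZT21. Dhcr7 was at 9.54, 10.9 and 10.4 CPM at ZT3 and at 17.0, 12.5 and 13.9 CPM at ZT15, while in control tumour ZT3 held the highest mean, within 1 SD of those at ZT9 and ZT15. Leaving out 1 sham library at a time moved the number of members with an unadjusted cosine p under 0.05 between 1 (without ZT9 replicate 3 or ZT21 replicate 1) and 7. With the T cell markers as a covariate that number was 8. These markers summed to 743 to 931 CPM at ZT9 and 620 to 751 CPM at ZT21 in sham.

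Libraries labelled Bmal1ΔcDC were compared with control tumour to ask how the members differed with the genotype label. Sequencing depth did not overlap between these groups, so that depth and genotype cannot be told apart here. Averaged over the 4 timepoints, 4 of 9 members were higher in libraries labelled Bmal1ΔcDC, where 23.5% of the genes tested were called higher, and none was lower. Sqle was higher by 0.54 ± 0.08 (SE, log2 scale; adjusted p = 2e-05, limma), Msmo1 by 0.46 ± 0.07 (adjusted p = 1.61e-05), Sc5d by 0.36 ± 0.06 (adjusted p = 4.23e-05) and Fdft1 by 0.26 ± 0.08 (adjusted p = 0.0139). Cyp51, Lss, Nsdhl, Hsd17b7 and Dhcr7 differed by 0.10 to 0.22 and did not pass. With median-of-ratios scaling Fdft1 no longer passed (0.17, adjusted p = 0.175, limma), and the other 3 did. T cell and macrophage markers were higher in the libraries labelled Bmal1ΔcDC, as given above. With the T cell markers as a covariate Sqle, Msmo1, Sc5d and Fdft1 stayed past the threshold, at 0.62, 0.52, 0.36 and 0.32, and Cyp51 passed as well (0.31, adjusted p = 0.031, limma).

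At single timepoints, no member passed at ZT3, Msmo1 passed at ZT9, and Sqle and Msmo1 passed at both ZT15 and ZT21. At ZT3 0 of 9 members passed (limma; 0 also at an unadjusted p under 0.05), against 3.06% of genes called higher, and the differences of Lss and Hsd17b7 were −0.51 ± 0.30 and −0.54 ± 0.32. At ZT9 Msmo1 alone passed (0.58 ± 0.14, adjusted p = 0.00985, limma), against 3.78%, and not without ZT9 replicate 3 labelled Bmal1ΔcDC (adjusted p = 0.0505). Its libraries stood at 190, 198 and 212 CPM against 121, 154, 141, 129 and 126 CPM, without overlap. At ZT9 markers of T cells (588 to 649 against 395 to 570 CPM) and macrophages (105 to 119 against 65.5 to 93.5 CPM) were higher too. So were those of dendritic cells (16326 to 20039 against 12706 to 15926 CPM) and migratory dendritic cells (22149 to 23637 against 20087 to 21857 CPM), all without overlap. The part of the lists other than T cells was not tested. At ZT15 Sqle (0.77 ± 0.17, adjusted p = 0.00428), Sc5d (0.58 ± 0.12, adjusted p = 0.00279) and Msmo1 (0.50 ± 0.14, adjusted p = 0.0191, limma) passed, 3 of 9 against 12%. Without ZT15 replicate 1 labelled Bmal1ΔcDC, Msmo1 did not pass (adjusted p = 0.107, limma). The median over all genes was itself 0.25 higher at ZT15, against 0.27 for the members, and with median-of-ratios scaling, which brings the median of all genes to 0.04, Sqle alone passed (0.55, adjusted p = 0.0389, limma). At ZT21 Sqle (0.86 ± 0.17, adjusted p = 0.00126), Msmo1 (0.69 ± 0.14, adjusted p = 0.00189) and Fdft1 (0.65 ± 0.16, adjusted p = 0.0081, limma) passed, 3 of 9 against 9.02%. All 9 differences were above 0, with a median of 0.65 over the members and 0.12 over all genes, and 0.52 and 0.00 after median-of-ratios scaling, under which Fdft1 did not pass (0.52, adjusted p = 0.0581, limma). Sqle was at 115, 74.6 and 80.7 CPM at ZT21 in libraries labelled Bmal1ΔcDC, all above the highest control tumour library at 56.0 CPM. Without ZT21 replicate 1 labelled Bmal1ΔcDC, Fdft1 did not pass (0.39, adjusted p = 0.134, limma) and Sqle and Msmo1 did.

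Whether the genotype difference changed with time was tested in itself. None of the 9 passed after adjustment, against 0.0502% of genes, and 4 had an unadjusted p under 0.05, against 18.3%: Fdft1 (adjusted p = 0.191), Lss (adjusted p = 0.193), Sqle (adjusted p = 0.205) and Msmo1 (adjusted p = 0.212, all limma). Without ZT3 replicate 3 labelled Bmal1ΔcDC 1 member had an unadjusted p under 0.05, and leaving out each other library in turn gave up to 6. For Lss the difference ran from −0.51 at ZT3 through −0.06 at ZT9 to 0.71 at ZT15 and 0.74 at ZT21, and for Fdft1 from −0.14 at ZT3 to 0.65 at ZT21.

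**Figure D4:**
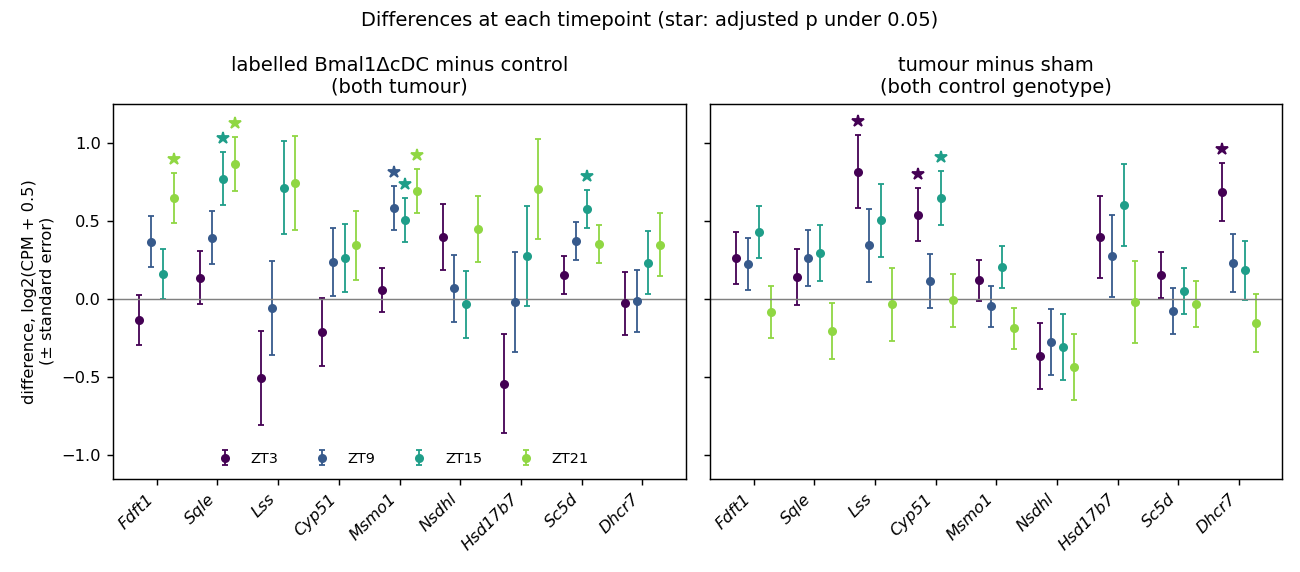
Difference in log2(CPM + 0.5), with its standard error, between libraries labelled Bmal1ΔcDC and control tumour (left) and between control tumour and sham (right) for each enzyme at ZT3, ZT9, ZT15 and ZT21; stars mark an adjusted p under 0.05. On the left all 9 enzymes are above 0 at ZT21; on the right none is above 0 at ZT21 and Nsdhl is below 0 at every timepoint.

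Control tumour was compared with sham to ask what the tumour injection changed. Averaged over time, 4 of 9 members were higher with tumour, where 13.3% of the genes tested were called higher. These were Lss (0.41 ± 0.12, adjusted p = 0.00728), Cyp51 (0.32 ± 0.09, adjusted p = 0.00356), Dhcr7 (0.23 ± 0.09, adjusted p = 0.0476) and Fdft1 (0.21 ± 0.08, adjusted p = 0.0468, all limma). Nsdhl was lower by 0.35 on the log2 scale (log2 difference −0.35 ± 0.11, adjusted p = 0.011, limma), where 24.6% of genes were called lower. It stood at 27.0 ± 5.61 CPM in control tumour (SD, n = 20) and 34.1 ± 6.04 CPM in sham (SD, n = 12). Sqle, Msmo1 and Sc5d, which were higher in libraries labelled Bmal1ΔcDC, differed from sham by 0.12 ± 0.09, 0.02 ± 0.07 and 0.02 ± 0.07 and did not pass. T cell markers were lower in control tumour than in sham and the sums of macrophage markers did not overlap between them. With the T cell markers as a covariate 0 of 9 members passed (limma), and 0 of 9 had an unadjusted p under 0.05. The log2 differences were then 0.33 for Lss, 0.07 for Cyp51, 0.26 for Dhcr7, 0.14 for Fdft1 and −0.19 for Nsdhl. Leaving out 1 library at a time gave 3 to 6 members, with the call of Fdft1 lost in 23 of 32 such fits and that of Dhcr7 in 20 of 32.

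At ZT3, Dhcr7 (0.68 ± 0.19, adjusted p = 0.0165), Lss (0.81 ± 0.23, adjusted p = 0.0236) and Cyp51 (0.54 ± 0.17, adjusted p = 0.0403, all limma) were higher with tumour, 3 of 9 against 1.84% of genes. Dhcr7 was at 21.8, 15.6, 22.9, 12.4 and 13.8 CPM with tumour and at 9.54, 10.9 and 10.4 CPM in sham, without overlap. Lss was at 42.8, 42.3, 33.5, 36 and 47.6 CPM with tumour and at 18.1, 31.2 and 20.4 CPM in sham, also without overlap. Cyp51 overlapped, with 197 CPM the lowest tumour library and 204 CPM the highest in sham. Markers of migratory dendritic cells were also higher with tumour at ZT3 without overlap (19863 to 24519 against 18414 to 19764 CPM). T cell markers (484 to 626 against 781 to 913 CPM) and macrophage markers (93.9 to 135 against 208 to 264 CPM) were lower without overlap. The part of the migratory dendritic cell and macrophage markers was not tested. Without ZT3 sham replicate 1 or replicate 3 none of the 3 passed, and Lss also did not pass without control tumour ZT3 replicate 5, nor Cyp51 without control tumour ZT3 replicate 1, 2, 3 or 5. At ZT9 none passed (limma), against 6.13% called higher, nor at an unadjusted p under 0.05. At ZT15 Cyp51 alone passed (0.65 ± 0.17, adjusted p = 0.00996, limma), against 4.42%, with 165 to 233 CPM with tumour and 110 to 151 CPM in sham, and not without ZT15 sham replicate 2 (adjusted p = 0.0982). With the T cell markers as a covariate 0 of 9 members passed at ZT3 (2 at an unadjusted p under 0.05) and 0 at ZT15 (0 unadjusted), where Cyp51 was at 0.38 (adjusted p = 0.248, limma). The median over all genes was −0.11 at ZT15 and −0.09 at ZT3, and −0.02 and 0.00 after median-of-ratios scaling. At ZT21 none passed, against 3.35%, Nsdhl alone had an unadjusted p under 0.05 (limma), and all 9 differences were below 0, from −0.44 for Nsdhl to −0.01 for Cyp51. A change of the treatment difference with time passed for none of the 9 after adjustment (0% of all genes), and 2 had an unadjusted p under 0.05, against 11.9%: Cyp51 (adjusted p = 0.365) and Dhcr7 (adjusted p = 0.369, both limma).

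Members also varied together within groups. After the mean of each group and timepoint was taken out, the correlation of log2(CPM + 0.5) over the 44 libraries had a median of 0.334 over the 36 pairs of members, beside 0.036 over all pairs of tested genes. These are descriptions over libraries that share depth and cell content. The highest was 0.746, between Fdft1 and Msmo1, and 9 pairs were above 0.5, among them Fdft1 with Sqle at 0.626 and Cyp51 with Msmo1 at 0.611. Cyp51 had the highest median with the others, 0.534, though it had the smallest difference between ZT9 and ZT21 in control tumour. Dhcr7 and Nsdhl varied least with the others, with medians of 0.036 and 0.140, and with each other at −0.222, the lowest of the 36. The member mean correlated at −0.297 with the mean of the T cell markers and at 0.094 with log2 depth, over the same 44 deviations. These deviations hold no difference in depth between groups.

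Among the genes outside the 9 whose pattern over the 44 libraries was most like the member mean were Hmgcs1 (r = 0.909), Insig1 (0.896), Idi1 (0.803), Fdps (0.759), Acat2 (0.743) and Aacs (0.733), out of 11954 genes ranked. Of these, Hmgcs1, Idi1, Fdps and Acat2 act on the route from acetyl-CoA to farnesyl pyrophosphate, and Insig1 retains Scap. Aacs, which feeds acetoacetate into lipid synthesis, was the only one of these outside the lists used here. With the group means taken out, Hmgcs1 stayed first at 0.803 and Acat2 fell to 0.298.

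The other genes of the pathway were read from a list of 31, all of them tested: the enzymes before squalene, sterol enzymes outside the 9 such as Tm7sf2, Lbr and Ebp, and genes of sterol sensing, uptake, storage and efflux. In control tumour 3 of 31 rose from ZT21 to ZT9, Insig1 by 1.26 ± 0.12, Hmgcs1 by 0.91 ± 0.16 and Fdps by 0.73 ± 0.15 (SE, log2 scale; adjusted p = 2e-05, 0.0184 and 0.0455, limma), and none fell, where 0.092% of the genes tested were called higher and 0.134% lower. With the T cell markers as a covariate Insig1 alone of these 3 passed (1.29, adjusted p = 0.00238, limma). Hmgcs1 was then at 0.69 and Fdps at 0.76 (adjusted p = 0.2999 for each, limma). In the genotype comparison averaged over time 10 of 31 were higher and 7 lower in libraries labelled Bmal1ΔcDC, against 23.5% and 10.2% of the genes tested. The cholesterol exporter Abcg1 was lower (log2 difference −0.87 ± 0.05), as were Npc2, which moves cholesterol out of lysosomes (−0.52 ± 0.07), Mvk, mevalonate kinase (−0.51 ± 0.09), and Srebf2, which encodes an SREBP factor (−0.37 ± 0.07). The genes that were higher, in the direction of the 4 members that passed, included Acat2 (0.47 ± 0.10), Lbr (0.55 ± 0.14) and Idi1 (0.29 ± 0.08), which were outside the 4 lowest p-values and were chosen after their values were seen. With the T cell markers as a covariate 10 of 31 were higher and 7 lower. Among enzymes before squalene, also named after their values were seen, Pmvk was then lower (−0.33, adjusted p = 0.0126, limma). Fdps (−0.005) and Mvd (0.06) did not pass. In the treatment comparison 13 of 31 were higher and 3 lower with tumour, against 13.3% and 24.6%. Abcg1 (0.55 ± 0.05) and Srebf2 (0.67 ± 0.08) were higher, while Nr1h3, the sterol-sensing receptor LXRα (−1.03 ± 0.10), and the exporter Abca1 (−0.79 ± 0.17) were lower. Macrophage and T cell markers were lower in control tumour as well, as given above. With the T cell markers as a covariate 3 of 31 passed as higher (Abcg1, Srebf2 and Acat2) and 1 as lower. The difference was then −1.10 for Nr1h3 and −0.47 for Abca1, which no longer passed (adjusted p = 0.291, limma), and the part of the macrophage markers was not tested.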

How the data were processed

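RNA of sorted dendritic cells was sequenced from 44 libraries (SMART-Seq v4 amplification, Nextera XT, single reads of 50 bases). The authors aligned reads with STAR to mm10, counted them per gene with HTSeq 0.9.1 and deposited CPM values, in which each library is scaled to the same total. Whether reads were counted by strand is not given in the sources used here. The study ran independent experiments, and the labels do not tell which library came from which, so that batch could not be tested. All columns were mapped to a sample (0 left over), and 0 pairs of libraries were identical. Whole reads were recovered for 87.4% to 89.3% of values per library, too few for a count test, which was not run.

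The members and gene lists were chosen with earlier results of these data known. A gene was tested if 5 or more libraries held it at 1 CPM or higher (11963 genes, with 2736 below). Tests were two-sided limma tests (limma 3.58.1, R 4.3.3) on log2(CPM + 0.5), so that fold changes of low genes are understated, with Benjamini-Hochberg adjustment over all tested genes and a threshold of 0.05. In each group a 24-h cosinor and the ZT9 minus ZT21 contrast were fitted alone. Genotype and treatment were each fitted on the 32 libraries compared, with one mean per group and timepoint. Named genes were the 9 members, Arntl, the 8 most alike genes by Pearson correlation with the member mean, and from the other pathway genes up to 4 per comparison by p. Values of some genes that this rule names are not reported here. Alternatives were other pseudocounts, scaling, filters, variance models, a replicate block, T cell markers as a covariate and each library left out. On simulated counts with 200 changed genes of 11963, the control ZT9 minus ZT21 test recovered 17.5% of 1.5-fold, 63% of 2-fold and 83% of 3-fold changes, and the genotype test averaged over time 66%, 86.5% and 99%. Promoter sequences came from RefSeq, build GRCm38.p6. Tables and plots were made with Python 3.11.15, pandas 2.3.3 and matplotlib 3.10.9.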

Additional observations from a re-analysis of the deposited data

Results flagged for a closer look

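In 36 groups of 5 control tumour libraries (9 genes at 4 timepoints), 2 held a library whose gap to the nearest other took up more of the range of the group than the critical value of 0.71, where chance gives about 1 in 20. Fdft1 in ZT9 replicate 2 was the highest of its group at 169 CPM, with the nearest library at 147 CPM and the lowest at 140 CPM. Nsdhl in ZT21 replicate 1 was the lowest of its group at 10.8 CPM, with the nearest library at 25.1 CPM and the highest at 26.9 CPM.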

How the results depend on the processing

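Counts below are of members out of 9 and the cause of each move was not tested. For the control tumour cosinor after adjustment (1 as reported), mean of at least 10 CPM and an intensity trend each gave 4, array weights gave 6, median-of-ratios scaling and the T cell covariate each gave 0, and leaving out 1 library gave 0 to 4. Its unadjusted count stayed between 8 and 9 when a library was left out. For ZT9 against ZT21 in control tumour (4), median-of-ratios scaling gave 2 (Sqle and Hsd17b7), array weights 8, the T cell covariate 0, and leaving out 1 library 0 to 5. For the unadjusted cosinor in libraries labelled Bmal1ΔcDC (2), median-of-ratios scaling and the trend gave 4 each, array weights 5, and leaving out 1 library 1 to 4. For the unadjusted sham cosinor (3), no filter gave 5, the filter at a mean of 10 CPM, the trend and array weights 6 each, the T cell covariate 8, and leaving out 1 library 1 to 7. For genotype at ZT9 (1), a pseudocount of 0.1, median-of-ratios scaling, the filter at 10 CPM, the trend and array weights gave 2 each, with 0 to 2 on leaving out 1 library. For genotype at ZT15 (3), median-of-ratios scaling gave 1 (2 to 3 on leaving out 1 library), and at ZT21 (3), array weights gave 6 (2 to 5). For genotype averaged over time (4), leaving out 1 library gave 4 to 5. For treatment at ZT3 (3) the T cell covariate gave 0 (0 to 3 on leaving out 1 library), at ZT15 (1) the trend gave 2 and the covariate 0 (0 to 2), and averaged over time (5, Nsdhl included) no filter gave 3 and the covariate 0 (3 to 6). Tested with 2 cosinor terms, the unadjusted count was 2 for genotype by time (4 as reported) and 0 for treatment by time (2 as reported). Array weights stopped before convergence in one fit.

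Some log2 differences changed sign. With the T cell covariate, ZT9 against ZT21 in libraries labelled Bmal1ΔcDC was −0.036 for Lss and −0.30 for Cyp51, and treatment averaged over time was −0.14 for Sqle, −0.070 for Msmo1 and −0.16 for Sc5d. Leaving out 1 library, ZT9 against ZT21 in libraries labelled Bmal1ΔcDC ran from −0.051 to 0.59 for Lss, −0.12 to 0.69 for Cyp51, −0.029 to 0.24 for Nsdhl and −0.0043 to 0.78 for Hsd17b7. Genotype averaged over time ran from −0.022 to 0.19 for Hsd17b7, and treatment averaged over time from −0.013 to 0.061 for Msmo1 and −0.0098 to 0.067 for Sc5d. None of these passed a test as reported.

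Replicate numbers in the labels did not pair the libraries. Deviations of libraries with the same number correlated at a median near 0 (0.0003 to 0.014 by number), with single pairs from −0.237 to 0.190. With the replicate block, the adjusted control tumour cosinor gave 0 members, ZT9 against ZT21 in control tumour gave 4, genotype averaged over time 3, treatment at ZT3 2 and treatment averaged over time 4. Depth was at least 20088012 reads on genes, so that 1 read was at most 0.0498 CPM.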
